A study of Mus musculus with 15 samples.

Results

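The genes described here encode the proteins of the cytosolic ribosome. Their peaks of open chromatin were taken by gene name from 4 deposited comparisons of mouse pancreatic islets: names that start with Rpl or Rps and a digit, with Rplp0, Rplp1, Rplp2 and Rpsa, leaving out the Rps6k kinases and names of pseudogenes. The rule uses names only. After partial pancreatectomy (PPx, removal of part of the pancreas), the comparison of genotypes held 52 such peaks at 50 genes among 13111 listed peaks: 29 at large subunit genes, 20 at small subunit genes and 3 at paralogues or other names taken in by the rule (Rpl22l1, Rpl36al and Rps23rg1). Before PPx it held 33 of 7826. The comparison of times held 52 of 12767 in knockout islets and 31 of 8070 in control islets. In all, 52 genes had a peak in at least 1 comparison, of 89 protein-coding names in the RefSeq annotation that fit the rule, and 29 genes had one in all 4.

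Islets came from 15 male mice aged 3 months, all of which had floxed Arid1a and carried MIP-rtTA, a transgene that makes a doxycycline-dependent activator under an insulin promoter. Controls were Arid1aFl/Fl; MIP-rtTA, and the knockouts (βKO) were Arid1aFl/Fl; MIP-rtTA; TRE-Cre. Before PPx there were 4 control and 3 βKO mice, and at 6 days after it 4 and 4. Per the labels' protocols the drinking water held 1 g/L doxycycline for 2 weeks, and surgery followed 1 week after its withdrawal. The Arid1a protein is part of SWI/SNF (BAF), a complex that moves nucleosomes and opens chromatin. The other islet cell types are not targeted by an insulin promoter and remain in each library of 40000 islet cells, so fewer β cells and less open chromatin per β cell cannot be told apart.

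Ribosomal proteins are made in roughly equal amounts and join ribosomal RNA in the nucleolus to form the small subunit, which reads the message, and the large subunit, which joins amino acids. Their genes belong to the most highly transcribed of growing cells, and their messages usually begin with a terminal oligopyrimidine (TOP) tract, through which mTORC1 and LARP1 set their translation. Islet β cells translate large amounts of proinsulin, and after loss of tissue they can grow and divide.

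The start sites are shown first because a pyrimidine run at the start is more frequent among these promoters than among all promoters, though most of them lack it. RefSeq start sites of GRCm38.p6 (the build mm10) fell within the peak for 34 of the 51 promoter peaks listed between genotypes after PPx. The peak centre lay between positions -255 and 150 relative to the start, with a median of -30, where negative positions are upstream. Each line gives 60 bases from 5′ to 3′, with 30 before the start site, and capitals mark the run of pyrimidines that covers the start. The first set is the promoters with the largest log2 changes between genotypes after PPx among those with a RefSeq start: Rpl37a (chr1:72711230-72711289 on the plus strand), Rps15a (chr7:118116118-118116177 on the minus strand), Rps24 (chr14:24490648-24490707 on the plus strand) and Rps4x (chrX:102189362-102189421 on the minus strand).
Rpl37a: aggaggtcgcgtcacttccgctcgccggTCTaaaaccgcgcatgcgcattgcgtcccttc
Rps15a: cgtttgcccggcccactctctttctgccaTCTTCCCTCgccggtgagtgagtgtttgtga
Rps24: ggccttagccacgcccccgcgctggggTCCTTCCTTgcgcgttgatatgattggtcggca
Rps4x: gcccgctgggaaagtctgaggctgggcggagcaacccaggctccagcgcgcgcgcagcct

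The next set is the promoters with the smallest changes among those with a RefSeq start: Rps12 (chr10:23787180-23787239 on the minus strand), Rpl28 (chr7:4792935-4792994 on the plus strand), Rps16 (chr7:28350659-28350718 on the plus strand) and Rps23rg1 (chr8:3567968-3568027 on the plus strand). The lines without capitals have no pyrimidine at the annotated start.
Rps12: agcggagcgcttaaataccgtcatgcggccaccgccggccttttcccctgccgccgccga
Rpl28: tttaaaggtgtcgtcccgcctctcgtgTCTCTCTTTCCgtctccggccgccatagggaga
Rps16: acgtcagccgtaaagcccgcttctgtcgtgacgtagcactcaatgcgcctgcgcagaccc
Rps23rg1: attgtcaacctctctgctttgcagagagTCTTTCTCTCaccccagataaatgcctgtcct

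The last set is peaks that passed the authors' threshold and whose annotated start lies in a pyrimidine run of 5 bases or more: Rpl31 (chr1:39367821-39367880 on the plus strand), Rps6 (chr4:86857338-86857397 on the minus strand), Rpl39 (chrX:37085193-37085252 on the minus strand) and Rpl27a (chr7:109519165-109519224 on the plus strand).
Rpl31: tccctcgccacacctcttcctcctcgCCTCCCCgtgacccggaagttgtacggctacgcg
Rps6: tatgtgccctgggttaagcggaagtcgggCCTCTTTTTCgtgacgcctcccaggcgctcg
Rpl39: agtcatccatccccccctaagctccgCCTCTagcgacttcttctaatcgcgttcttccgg
Rpl27a: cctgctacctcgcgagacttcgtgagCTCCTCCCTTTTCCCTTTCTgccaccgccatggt

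A pyrimidine run of 5 bases or more covered the annotated start in 12 of the 34 promoters (35.3%), against 8.94% of the 6768 starts that lay in any promoter peak of that comparison and 10.1% of all 32851 starts in the RefSeq table. The log2 change after PPx had a median of 0.98 at the promoters with such a run and 0.76 at those without. This difference was not tested, and promoter peaks without a RefSeq start are in neither set. Both sets include peaks called in 0 control libraries, such as Rps15a with a run and Rps4x without. Such runs stood at both ends of the range: Rps15a and Rps24 have a run of 9 bases, Rpl28 has 11 and Rps23rg1 has 10, while Rpl37a has a run of 3. Runs were counted on both sides of the start. They can lie mostly before the first base of the annotated message, as at Rpl39, and are not shown to be TOP tracts. The run depends on the exact base that RefSeq takes as the start. A promoter without a run over that base can have one nearby. The longest pyrimidine run near the start had a median of 6.0 bases at the 34 promoters and 4.0 at the 6768 starts in listed promoter peaks.

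**Figure D1:**
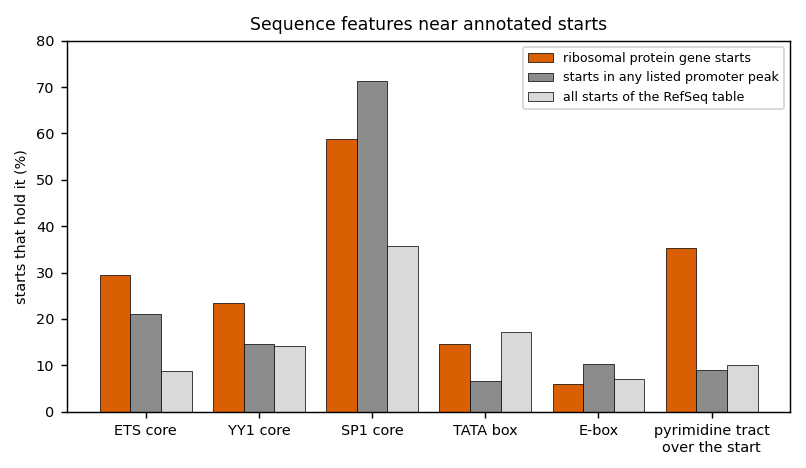
Share of starts (vertical axis, %) that hold each sequence feature, for 34 ribosomal protein gene starts, 6768 starts in any listed promoter peak and 32851 starts in the RefSeq table. The pyrimidine tract over the start, a run counted on both sides of it, is the feature whose share among ribosomal protein genes (35.3%) is farthest above both others. The SP1 core is less frequent there than among starts in listed peaks (58.8% and 71.4%).

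Motifs were searched on both strands of the 300 bases from 250 before to 50 after each start. The ETS core CCGGAAG stood in 10 of 34 promoters (29.4%), against 21.0% of starts in listed promoter peaks and 8.86% of all starts. The median log2 change after PPx was 0.91 with it and 0.70 without it. The YY1 core GCCATC stood in 8 promoters (23.5%, against 14.5% and 14.1%), with medians of 0.86 and 0.82. A TATA box, searched as TATAAA or TATATA, stood in 5 (14.7%, against 6.52% and 17.1%). The SP1 core GGGCGG stood in 20 (58.8%, against 71.4% and 35.7%), and the E-box CACGTG in 2 (5.88%, against 10.3% and 7.15%). A match of letters is not a measured binding site, and no difference in log2 change with and without a motif was tested.

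All deposited values are group means of peaks 601 bases wide, on the authors' log2 concentration scale, so levels of different genes are over the same length. Depth and values per library were not analysed here, and each mouse's level can be judged only from the number of libraries in which a peak was called. A peak is called opened or closed below when its FDR in the authors' deposited table is under 0.05, and a positive log2 change means higher in βKO islets or after PPx. At the targeted gene, a peak in exon 9 of Arid1a was higher in βKO islets both before (log2 change 4.28) and after PPx (3.64) in the authors' deposited table. Levels set across comparisons are not on 1 scale. At the 29 genes present in all 4 comparisons, βKO islets before PPx read a median of 0.23 higher in the comparison of genotypes than in the comparison of times, and control islets before PPx read 0.17 higher. For the islets after PPx these medians were 0.00 in βKO and -0.05 in control.

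At 6 days after PPx, 11 of the 52 ribosomal protein gene peaks were more accessible in βKO than in control islets past the threshold. Of the 52 peaks, 51 (98.1%) read higher in βKO islets and 0 closed in the authors' deposited table. So did most of the comparison, with 96.9% of all promoter peaks and 90.3% of all listed peaks higher in βKO islets. Their log2 change had a median of 0.71 (quartiles 0.51 and 0.95), a 1.64-fold difference, and the median log2 level was 3.67 in control and 4.41 in βKO islets. The authors' p-values imply a median standard error of 0.385 at these peaks.

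Most listed promoters had a similar difference. The share opened, 21.2%, compares with 9.88% of all listed peaks and 14.3% of promoter peaks, while 0.0839% of all peaks closed. In strata of the same class (promoter or not) and the same of 10 bins of concentration (like peaks), the mean share opened for these peaks was 14.3%. Over all listed peaks the median log2 change was 0.61, that of promoter peaks 0.71, and that of like peaks 0.70. Of the 52 peaks, 27 changed more and 23 less than the median of their like peaks, with a median excess of 0.03. In the approximate test relative to the median of all listed peaks, 0 of the 52 passed an adjusted p of 0.05, as against 0.389% of all peaks. An unadjusted p under 0.05 in that test stood at 2 of the 52 and at 654 of all 13111 peaks. The smallest adjusted p among the 52 was 0.886.

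**Figure D2:**
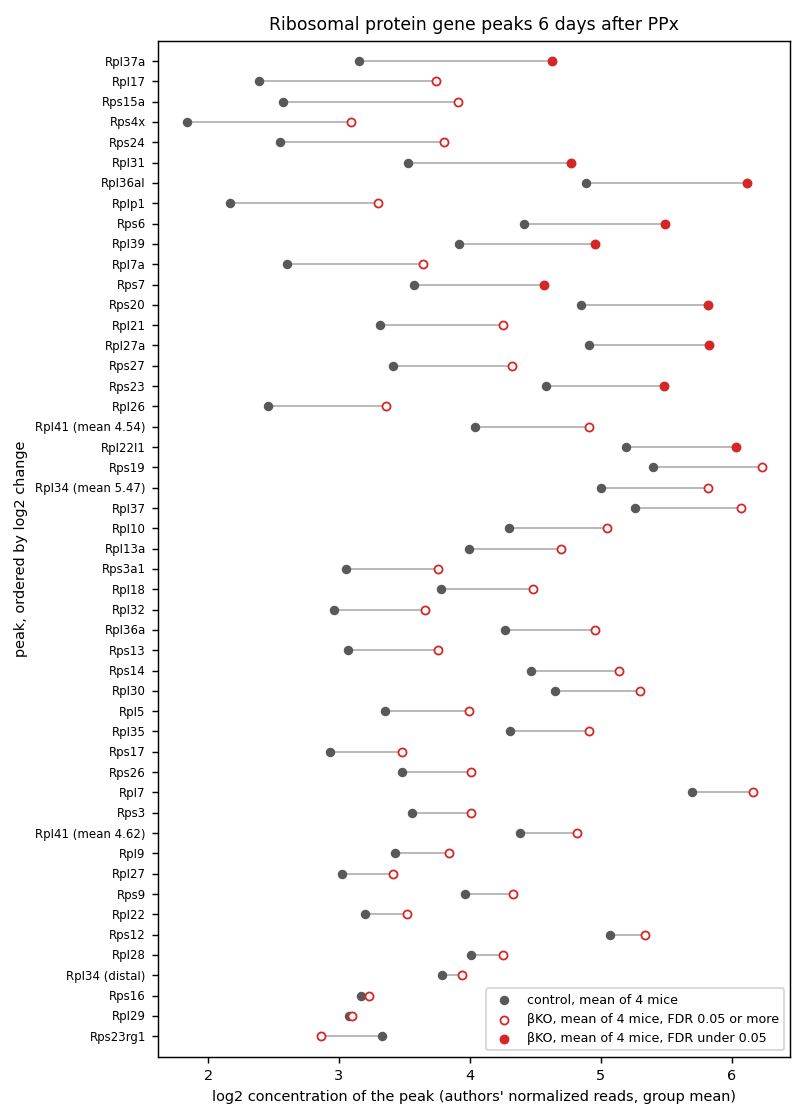
Group mean log2 concentration (horizontal axis) of 49 ribosomal protein gene peaks in control (grey) and βKO islets (red) 6 days after PPx, 1 line per peak ordered by log2 change, with filled red points for an FDR under 0.05. Every peak except that of Rps23rg1 lies farther right in βKO islets, and the opened peaks drawn all read 4.57 or more there.

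At large subunit genes, 4 of 29 peaks opened, 0 closed and 25 did not pass the threshold, with a median log2 change of 0.70. The promoter of Rpl37a, which encodes a zinc-binding protein of the large subunit, read 3.15 in control and 4.63 in βKO islets, a log2 change of 1.47 with FDR 0.0214 in the authors' deposited table. Its peak, chr1:72710969-72711569, was called in 4 of 4 βKO and 0 of 4 control libraries. Rpl31, whose product lies near the mouth of the tunnel through which the new chain leaves, read 3.53 and 4.77, a change of 1.24 with FDR 0.0289 in the authors' deposited table. Rpl39, which encodes a small protein of the tunnel wall, read 3.92 and 4.96 (1.04, FDR 0.0416, in the authors' deposited table). Rpl27a read 4.91 and 5.83, a change of 0.92 with FDR 0.0386 in the authors' deposited table, and was called in all 8 libraries. The changes at these 4 promoters had implied standard errors between 0.307 and 0.394.

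At small subunit genes, 5 of 20 peaks opened, 0 closed and 15 did not pass, with a median log2 change of 0.77. The promoter of Rps6, the small subunit protein that S6 kinases phosphorylate downstream of mTORC1, read 4.41 in control and 5.49 in βKO islets, a change of 1.08 with FDR 0.0371 in the authors' deposited table. Rps7 read 3.57 and 4.57 (1.00, FDR 0.0471, in the authors' deposited table), called in 4 of 4 βKO and 1 of 4 control libraries. Rps20 read 4.85 and 5.82, a change of 0.97 with FDR 0.0346 in the authors' deposited table. Rps23, which encodes a protein of the decoding centre, read 4.58 and 5.48 (0.90, FDR 0.0436, in the authors' deposited table). The peaks of Rps20 and Rps23 were called in all 8 libraries. The share opened in the small and in the large subunit was not tested for a difference.

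Both paralogues that replace or accompany a subunit protein opened as well. Rpl36al, a paralogue of Rpl36a, read 4.89 in control and 6.12 in βKO islets, a change of 1.23 with FDR 0.0268 in the authors' deposited table. Its peak also holds the annotated start of Mgat2, a glycosylation enzyme gene, so the signal cannot be assigned to 1 of them. Rpl22l1, a paralogue of Rpl22, read 5.19 and 6.03 (0.84, FDR 0.0436, in the authors' deposited table). Rpl22 itself read 3.20 and 3.52, a change of 0.32 with FDR 1.00 in the authors' deposited table. Rps23rg1, a retroposed copy of Rps23, had the only lower value of the 52 peaks in βKO islets, at 3.33 in control and 2.86 in βKO islets (-0.47, FDR 1.00, in the authors' deposited table). It was called in 1 library of each group. At 5 other peaks (Rpl7a, Rps27, Rpl9, Rpl18 and the second Rpl41 peak) a start of another protein-coding gene also lay within the peak.

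The largest changes that did not pass stood at weak peaks. In control and βKO islets Rpl17 read 2.39 and 3.74, Rps15a read 2.57 and 3.91, and Rps24 read 2.55 and 3.80. Their log2 changes were 1.36, 1.35 and 1.25, each with FDR 1.00 in the authors' deposited table. Rps4x, which lies on the X chromosome, was the weakest of the 52 peaks, with 1.84 and 3.09 (1.25, FDR 1.00, in the authors' deposited table). These 4 peaks were called in 0 control libraries. The authors' FDR was exactly 1 at 16 of the 52 peaks, with a median level of 2.95 in control islets. It was 1 at 1916 of 8050 promoter peaks as well. An unadjusted p under 0.05 stood at 6 of the 16 and at 369 of the 1916 in the authors' deposited table. Of the 36 peaks with an FDR under 1, 11 opened (30.6%), against 18.8% of 6134 promoter peaks with an FDR under 1.

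Peaks called in both groups read higher in βKO islets as well. The 15 peaks called in all 8 libraries had a median log2 change of 0.82, beside 0.78 at their like peaks, and 6 of them opened. In the strongest of 10 bins of concentration, 28.7% of all promoter peaks opened. Shares over all promoter peaks called in the same libraries are not given here. The 14 peaks called in 0 control libraries had a median change of 0.99 and 1 opened, but a peak listed through βKO libraries alone had to be higher there.

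Some ribosomal protein gene promoters read nearly the same in both genotypes. In control and βKO islets Rpl29 read 3.08 and 3.10, and Rps16 read 3.17 and 3.23, so that they differed by 0.02 and 0.06 in the authors' deposited table. Among the strong peaks, Rps12 read 5.07 and 5.34, a change of 0.27 with FDR 0.436 in the authors' deposited table, although it was called in all 8 libraries. Rpl7, the strongest of the 52 by mean level, read 5.70 and 6.16 (0.46, FDR 0.240, in the authors' deposited table). Rps19, a gene mutated in Diamond-Blackfan anaemia, was close behind at 5.40 and 6.23, a change of 0.84 with FDR 0.0580 in the authors' deposited table. Among the weakest, Rplp1, a protein of the stalk that recruits elongation factors, read 2.17 and 3.30, and Rpl26 read 2.46 and 3.36, with changes of 1.13 and 0.90 with FDR 1.00 in the authors' deposited table. The only peak outside a promoter, a distal intergenic one assigned to Rpl34 (chr3:130737868-130738468), read 3.79 and 3.94 (0.15, FDR 0.725, in the authors' deposited table). The Rpl34 promoter, chr3:130730077-130730677, read 5.00 and 5.82, with FDR 0.0586 in the authors' deposited table. Over the 52 peaks, mean level and log2 change had a Pearson correlation of 0.11, a description over peaks of the same libraries.

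**Figure D3:**
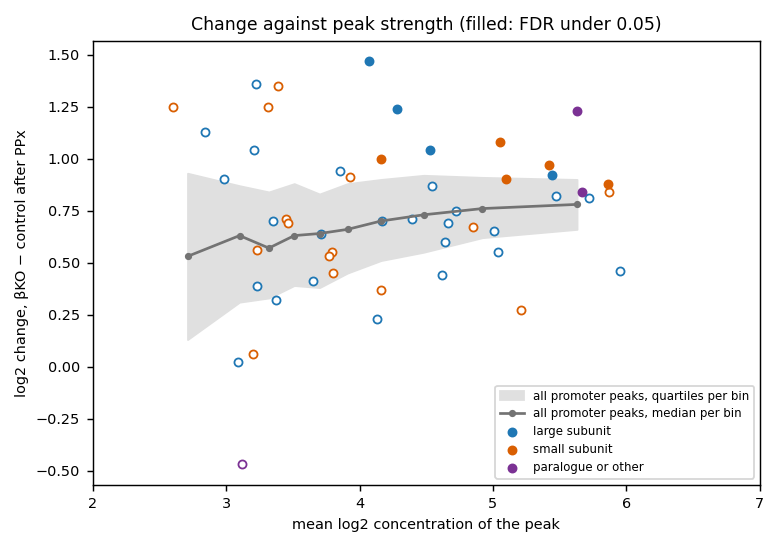
Log2 change between βKO and control islets after PPx (vertical axis) against mean log2 concentration (horizontal axis) for 51 ribosomal protein gene promoter peaks, with filled points for an FDR under 0.05, over the medians and quartiles of all promoter peaks in 10 bins of concentration. Points lie on both sides of the promoter median, and the opened peaks have a mean level of 4.07 or more.

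Before PPx, no ribosomal protein gene promoter differed between βKO and control islets past the threshold. By the authors' FDR, 0 of 33 peaks opened or closed. An unadjusted p under 0.05 stood at 0 of the 33 and at 246 of all 7826 listed peaks. FDR was 1 at all 33 and at 7825 of the 7826 in the authors' deposited table. Of all listed peaks, 0.0128% opened and 0% closed, and in the approximate test relative to the table median 0.0128% had an adjusted p under 0.05, with 0 of the 33 among them. The median log2 change of the 33 was 0.03, with 20 higher (60.6%), 11 lower and 2 equal, and that of all promoter peaks was 0.04. Of all promoter peaks 54.4% read higher, and of all listed peaks 48.9%. The median level was 4.21 in control and 4.15 in βKO islets.

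Values before PPx spread to both sides. Among the highest changes were Rpl37a (3.12 in control and 3.71 in βKO islets), Rps20 (5.15 and 5.47) and Rpl39 (3.83 and 4.11), between 0.29 and 0.58 on the log2 scale. The lowest was Rps26, which encodes a protein at the exit of the message channel, at 3.93 and 3.17, a change of -0.76 with FDR 1.00 in the authors' deposited table. It was followed by Rpl9 (3.37 and 2.86), Rps7 (3.94 and 3.52) and Rpl5 (3.55 and 3.16), the latter coding for a partner of the 5S ribosomal RNA. At 18 large subunit peaks the median change was 0.09 and at 13 small subunit peaks 0.03. With 3 βKO mice the lack of calls does not show equal accessibility.

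In control islets, PPx itself was followed by no change past the threshold. By the authors' FDR, 0 of 31 peaks opened or closed, as did 0% of all 8070 listed peaks. An unadjusted p under 0.05 stood at 1 of the 31 and at 204 of the 8070. In the approximate test relative to the table median the count was 0 of 31, and 0% of all peaks. The median log2 change was 0.14, with 20 higher (64.5%), 10 lower and 1 equal, against 0.15 at all promoter peaks. Of all promoter peaks 71.9% read higher after PPx, and of all listed peaks 72.8%. Among the highest, Rps9 read 3.32 before and 4.02 after PPx (0.71, FDR 0.999, in the authors' deposited table), the distal Rpl34 peak 3.31 and 3.84, and Rpl35 3.92 and 4.36. At the other end, Rpl31 read 3.84 and 3.55, Rps26 3.76 and 3.52, Rps23 4.71 and 4.51, and Rps7 3.87 and 3.69. The median was 0.31 at 17 large subunit peaks and 0.08 at 12 small subunit peaks, a difference that was not tested.

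In βKO islets, 6 of the 52 ribosomal protein gene peaks were more accessible after PPx than before it past the threshold. After PPx 51 of the 52 (98.1%) read higher and 0 closed in the authors' deposited table. Of all promoter peaks 98.8% read higher after PPx, and of all listed peaks 97.1%. The share opened was 11.5%, against 7.44% of all listed peaks and 9.72% of promoter peaks, with 0% of all peaks closed. The mean share opened in like strata was 9.21%. The median log2 change was 0.95, against 0.83 at all listed peaks, 0.86 at promoter peaks and 0.87 at like peaks. Here 35 of the 52 lay above and 17 below the median of their like peaks, with a median excess of 0.10. Relative to the table median, 0 of the 52 and 0% of all peaks passed an adjusted p of 0.05 by the approximate test. This comparison shares the βKO libraries after PPx with the comparison of genotypes after PPx, so the 2 are not independent.

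Of the 6 opened peaks, 4 belong to the large subunit. Rpl10, whose product joins late and lies near the peptidyl transferase centre, read 3.84 before and 5.06 after PPx, a log2 change of 1.22 with FDR 0.0386 in the authors' deposited table. Rpl36a read 3.79 and 4.96 (1.17, FDR 0.0467, in the authors' deposited table). Rpl35, a protein at the tunnel exit, read 3.74 and 4.90, a change of 1.16 with FDR 0.0462 in the authors' deposited table. The Rpl34 promoter read 4.74 and 5.80 (1.07, FDR 0.0484, in the authors' deposited table). In the small subunit, Rps6 read 4.36 and 5.49, a change of 1.13 with FDR 0.0460 in the authors' deposited table, and Rps19 read 5.30 and 6.25 (0.96, FDR 0.0483, in the authors' deposited table). The implied standard errors of these 6 changes lay between 0.334 and 0.400. The other 46 did not pass, among them the distal Rpl34 peak with 2.61 before and 3.92 after PPx.

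The other values of that comparison ranged widely. The largest, at Rplp1, went from 1.61 to 3.30 (1.69, FDR 1.00, in the authors' deposited table), followed by Rps24 from 2.41 to 3.83, Rps7 from 3.25 to 4.59 and Rps26 from 2.75 to 4.06. Rps7 had FDR 0.0514 in the authors' deposited table. The only lower value was at Rpl10a, a protein of the L1 stalk, with 2.89 before and 2.83 after PPx (-0.07, FDR 1.00, in the authors' deposited table). Among the other low values, Rpl28 read 3.62 and 4.19, and Rps3 read 3.40 and 3.99, changes of 0.58 and 0.59.

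**Figure D4:**
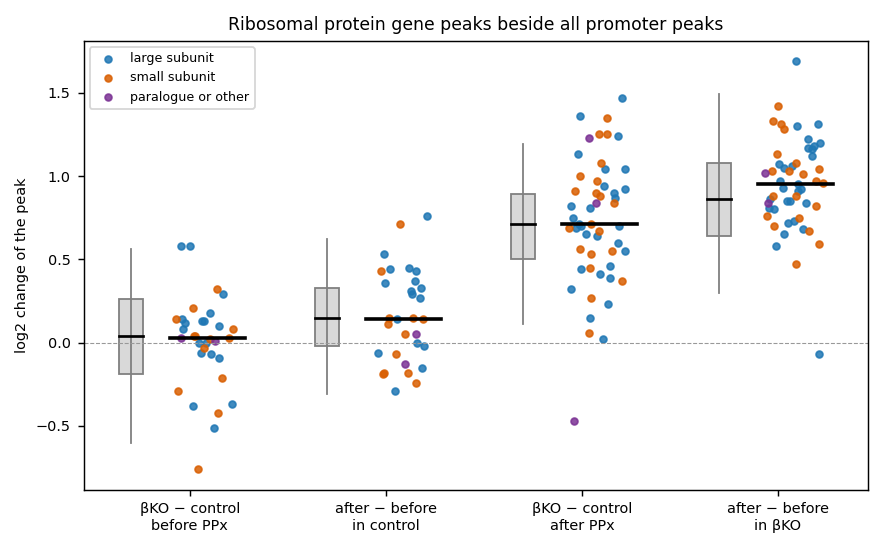
Log2 change of each ribosomal protein gene peak (points; horizontal line, their median) in the 4 comparisons, beside all promoter peaks (box, quartiles and median; line, 5th to 95th percentile). The points lie around 0.03 and 0.14 in the comparisons on the left and around 0.71 and 0.95 in those on the right, each close to the median of all promoter peaks.

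The genotype difference was larger after PPx than before at nearly every ribosomal protein gene position listed at both times. At none of these positions did the difference between the differences pass a test. Positions were taken by the gene name given after PPx. They are therefore not the same set as the peaks listed before PPx, which include Rpsa. Of 33 positions whose peaks overlapped between the comparisons of genotypes before and after PPx, which share no library, 32 (97.0%) had the larger value after PPx, as had 92.2% of 7503 overlapping peaks. The median of the interaction (log2 change after minus log2 change before) was 0.82 at the 33 positions and 0.64 at all overlapping peaks. The latter include peaks outside promoters, and a value for promoter peaks or like peaks alone is not given here. In the approximate test 0 of 33 had an adjusted p under 0.05, as had 0% of all peaks, with a smallest adjusted p of 0.310 and a median standard error of 0.527. At an unadjusted p under 0.05 there were 4 of the 33, and 14.4% of all peaks. These were Rps7 (interaction 1.42, from -0.42 before to 1.00 after PPx), Rpl36al (1.20), Rps23 (1.11) and Rpl13a (1.08). At Rpl37a the change was 0.58 before and 1.47 after PPx, while at Rps12 it was 0.04 and 0.27.

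**Figure D5:**
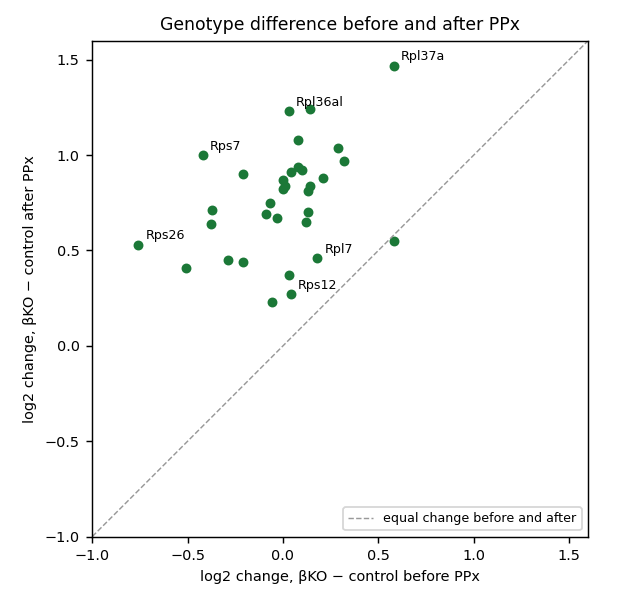
Log2 change between βKO and control islets after PPx (vertical axis) against the same change before PPx (horizontal axis) at 33 ribosomal protein gene positions, with a dashed line where both are equal. Of the 33 points, 32 lie above the line, and the values before PPx lie on both sides of 0.

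Single genes are given side by side over the 4 comparisons. Rps6 changed by 0.08 between genotypes before PPx and by 1.08 after it, and by 0.15 with PPx in control and 1.13 in βKO islets. Rpl10 gave -0.07, 0.75, 0.37 and 1.22 in the same order. Each of these values shares a group with another of them, so that the interaction and the difference between the changes with PPx in βKO and control islets are 1 quantity but for the scale of each comparison.

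Between genotypes after PPx, the median change of peaks at ribosome assembly genes was close to that of all promoter peaks. Genes are counted here by any opened peak, promoter or distal, while the shares set beside them count peaks, so the units differ. Of 91 names of ribosome assembly and processing factors, which include a synonym (Nog1, for Gtpbp4), 51 had a peak in the comparison of genotypes after PPx. Of these, 9 had an opened peak, 42 did not pass, and none closed in the authors' deposited table, and the median log2 change of their peaks was 0.70, against 0.71 at all promoter peaks, of which 14.3% opened (9.88% of all peaks). The largest were at the promoters of the processome gene Utp14a (3.11 in control and 4.65 in βKO islets, FDR 0.0250), Pdcd2, a gene linked to small subunit assembly (3.97 and 5.48, FDR 0.0154), and Npm1, the nucleolar protein nucleophosmin (3.89 and 5.37, FDR 0.0212), in the authors' deposited table. A distal and a promoter peak of Gnl3l, a nucleolar GTPase gene, changed by 1.49 and 1.12 in the authors' deposited table. Wdr12 and Ppan, both large subunit assembly genes, changed by 1.14 and 1.11 at their promoters. With PPx in βKO islets, where 9.72% of promoter peaks and 7.44% of all peaks opened, 10 of 50 such genes had an opened peak and their peaks had a median change of 0.94, against 0.86 at all promoter peaks. The largest were Utp15 (2.73 before and 4.57 after PPx, FDR 0.0230, in the authors' deposited table) and Nop56, Utp14a, Nol6, Emg1 and Gnl3l with log2 changes from 1.27 to 1.67.

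The shares opened over all peaks and all promoter peaks given for the assembly genes apply to the smaller lists below too. Genes are again counted there by any opened peak. For RNA polymerase I and its factors 18 names were searched, which include older and newer names of the same gene, such as Twistnb and Polr1f. Of these names, 8 had a peak after PPx. Between genotypes 1 opened, the promoter of Taf1d (4.65 in control and 5.61 in βKO islets, FDR 0.0436, in the authors' deposited table). With PPx in βKO islets 2 of 8 opened, Rrn3, the initiation factor (2.84 before and 4.32 after PPx, FDR 0.0410), and Taf1b (2.73 and 4.17, FDR 0.0472), in the authors' deposited table. Of 18 regulators around mTORC1 and LARP1, 11 were measured and 0 opened between genotypes after PPx, with a median log2 change of 0.77. With PPx in βKO islets 2 of 11 opened, the Myc partner Max (3.59 and 5.13, FDR 0.0258) and Rheb, the activator of mTORC1 (4.67 and 5.95, FDR 0.0289), in the authors' deposited table. In neither the comparison before PPx nor that of times in control islets did a gene of these lists pass.

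Markers of other cells moved by varied amounts in the same comparison of genotypes after PPx, where the median log2 change of all listed peaks was 0.61. Of 15 β cell markers, 9 were measured and 2 had an opened peak (Ins1 and Nkx6-1). Their median log2 change was 0.66, with summed linear concentrations of 203.4 in control and 325.1 in βKO islets. Both genotypes carry a transgene with an insulin promoter, so reads of it cannot be told apart from those of Ins1. Of 9 markers of α, δ and PP cells, 4 were measured and 1 had an opened peak (Sst), with a median of 0.70. Of 13 acinar markers, 2 were measured, with a summed linear concentration of 14.5 in control and 22.7 in βKO islets, and 0 opened. For 10 duct markers the numbers were 3 measured, 46.6 and 70.9, and 1 opened (Ambp). For 10 macrophage and leukocyte markers they were 2 measured, 17.9 and 27.2, and 0 opened. Of 10 endothelial markers, 5 were measured, with sums of 100.4 and 106.6 and a median log2 change of 0.17, and of 10 stromal markers 4 were measured, with sums of 56.9 and 81.4 and a median of 0.45. With PPx in βKO islets the median log2 change of all listed peaks was 0.83. There, macrophage and leukocyte markers had summed concentrations of 13.7 before and 27.6 after PPx (2 of 10 measured, 1 opened, Csf1r, median log2 change 1.12). Duct markers had 30.9 and 61.5 (3 of 10 measured, 1 opened, Epcam, median 0.84), and acinar markers 6.19 and 13.8 (1 of 13 measured, 0 opened, 1.17). Endothelial markers had 57.7 and 80.5 (5 of 10 measured, 0 opened, median 0.47), and of 10 stromal markers 4 were measured and 0 opened, with a median of 0.79. Of the 15 β cell markers 8 were measured and 1 opened (Slc30a8), with a median of 0.92 and sums of 170.8 and 314.1. Of the 9 markers of α, δ and PP cells 4 were measured and 0 opened, with a median of 0.72. The part of these cells in the changes at ribosomal protein genes was not tested.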

How the data were processed

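ATAC-seq libraries, in which a transposase cuts open chromatin, were made from islets of 15 mice and read as 75-base single ends, per the labels. Per the submitters' processing notes, the tools were DiffBind, ChIPseeker, MACS, BWA and cutadapt, on GRCm38 (mm10). Their versions, their settings and whether reads were shifted to the Tn5 cut site: not given in the sources used here. Per the file headers, each of 4 deposited tables gives, for peaks 601 bases wide, log2 concentrations per group and a log2 fold, which equals their difference within 0.01. Here its sign was turned. The authors' p-value and FDR per peak were used as deposited. Rows that repeated a position were counted once. Depth per library is unknown, and no library could be left out, so p-values rest on the authors' fits over single mice.

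With Python 3.11.15, pandas 2.3.3, numpy 2.4.6 and scipy 1.17.1, a standard error was derived per peak from its deposited change and p-value. For p-values from 0.5 upwards and for log2 changes below 0.1, it was the median over peaks in 20 bins of concentration. Approximate normal tests, two-sided, with Benjamini-Hochberg adjustment over all peaks, compared changes with the table median and between the genotype tables (the interaction). They leave out 1 peak after PPx between genotypes and 2 in the control comparison of times, whose p-value and change disagreed. These steps were run on data simulated with the same normal errors. The planted shifts were larger than the median excess and the median interaction at these genes. The simulations therefore do not show whether changes of that size would be found. Like peaks share the class (promoter or any other annotation) and 1 of 10 bins of concentration. Peaks matched across tables when they shared 1 base.

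Named are the peaks with an FDR under 0.05, the 4 highest and 4 lowest changes per table, the 3 strongest and 3 weakest peaks, the peak outside promoters, and up to 6 opened genes per list. Results at some genes that these rules name are not reported here. Further peaks, such as those of Rps12 and Rpl22, were named after their values were seen. The members and lists were chosen with earlier results of these data known. Of 89 RefSeq names that fit the rule, 37 had no listed peak, and promoters were matched to RefSeq by symbol.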

Additional observations from a re-analysis of the deposited data

How the results depend on the processing

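Of 69 values recomputed under other settings, 57 kept their side of the threshold or moved by less than the spread. No value past a threshold changed direction, but small medians without a call changed sign. The median before PPx of 0.03 became -0.06 and -0.05 relative to like peaks in 10 and 20 bins, and that of control islets with PPx, 0.14, became -0.02 relative to the table median and -0.04 and -0.05 relative to like peaks. In the comparison of genotypes after PPx, 11 ribosomal protein gene peaks opened at an FDR under 0.05. At an FDR under 0.1 the count was 21 and at 0.01 it was 0. A Benjamini-Hochberg adjustment of the deposited p-values over all listed peaks gave 4 (Rpl37a, Rpl31, Rpl36al and Rps20). The corresponding counts in βKO islets with PPx were 6 as deposited, 25, 0 and 1 (Rpl10). The cause of the lower counts under that adjustment was not tested. Counting only peaks called in at least 2 libraries of each group gave 8 opened between genotypes after PPx. In βKO islets with PPx that count was 5. Shares of all listed peaks or promoter peaks under these other settings are not given here. These counts are therefore no result about ribosomal protein genes in particular. The median log2 change of 0.71 between genotypes after PPx was 0.10 relative to the table median, 0.03 relative to like peaks in 10 bins of concentration and 0.03 in 20 bins. The median of 0.95 in βKO islets with PPx became 0.12, 0.10 and 0.10. Leaving out peaks that hold the start of another gene, an alternative chosen after seeing the data, left 10 opened of 46 between genotypes after PPx, with a median log2 change of 0.71. No paired analysis was possible because the groups share no sample numbers, and no library could be left out because only group means were analysed. Over the 52 peaks between genotypes after PPx, the median implied standard error was 0.385 beside a median change of 0.71. At the 16 of them with an FDR of exactly 1, these medians were 0.477 and 0.70. What limits the number of calls was not tested.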

Other observations

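The start sites of 3 ribosomal protein genes without a peak of their own name lay in peaks that the authors' annotation gives to a neighbouring gene, out of 30 such genes with a RefSeq start that were searched. They were looked for after the other results were seen. The start of Rps21 lies in a peak listed under Mir3091, which read 2.97 before and 4.46 after PPx in βKO islets, a log2 change of 1.50 with FDR 0.0332 in the authors' deposited table. Between genotypes (control, then βKO) the same place read 4.11 and 3.24 at baseline, and 3.58 and 4.46 at 6 days (FDR 1.00 and 0.0600 in the authors' deposited table). The start of Rpl15, in a peak listed under Nkiras1, was among the strongest of these genes, with 5.81 and 6.57 at 6 days (FDR 0.0649, in the authors' deposited table). The start of Rpl24, in a peak listed under Gm28037, read 4.07 and 4.62 (FDR 0.200, in the authors' deposited table).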
